A study of Mus musculus with 10 samples.

Results

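The 9 genes described here are the fibroblast growth factor ligands Fgf8 and Fgf17 and 7 genes that FGF signalling is known to induce: the Sprouty inhibitors Spry1, Spry2 and Spry4, the phosphatase Dusp6, and the ETS transcription factors Etv1, Etv4 and Etv5. They were chosen by name, with earlier results of these data known, and are 9 of the 15063 genes that the array's annotation names singly. Every array probe annotated to exactly 1 of these symbols was taken, which gave 10 of the 21766 probes, with 2 probes for Etv5 and 1 for each other gene. The arrays set the caudal against the rostral end of the mouse neocortex at E11.5, in the outbred stock MF1 (3 pools on 6 arrays) and the inbred strain C57 (2 pools on 4 arrays). No treatment and no engineered allele is named for either. The series' design text names 3 pools per strain, while the labels give 2 for C57. A pool held tissue of 3 embryos per its label, its caudal and rostral RNA were amplified by the SMART method and hybridised together, and a second array repeated this with the dyes Cy3 and Cy5 exchanged, so the pool and not the array is the replicate.

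FGF8 and FGF17 are secreted by a patch of tissue at the rostral midline of the telencephalon and bind receptor tyrosine kinases on the neighbouring cortical progenitors. The receptors signal through RAS and the kinase ERK to ETS factors of the PEA3 group (Etv1, Etv4 and Etv5), which are themselves induced, while Sprouty proteins and DUSP6 are induced as feedback inhibitors: Sproutys act on the relay to RAS, and DUSP6 removes the activating phosphates from ERK. In the early cortex this source is known for setting rostral identity, and its targets are commonly used to read where the signal arrives.

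The promoter sequences of the 4 feedback targets with the most negative ratios are given first, because these genes lay on the rostral side on nearly every array and ETS factors bind DNA at a GGAA core. Each line holds the 250 bases before the annotated start of the gene in GRCm38.p6 (RefSeq), with GGAA or its reverse complement TTCC in capitals.
Spry1, chr3:37639697-37639946, plus strand: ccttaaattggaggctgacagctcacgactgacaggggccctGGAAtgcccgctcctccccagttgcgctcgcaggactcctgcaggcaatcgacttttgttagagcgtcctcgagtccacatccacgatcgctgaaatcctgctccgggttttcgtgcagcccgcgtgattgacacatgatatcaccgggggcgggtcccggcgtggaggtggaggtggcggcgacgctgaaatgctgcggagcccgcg
Spry2, chr14:105896820-105897069, minus strand: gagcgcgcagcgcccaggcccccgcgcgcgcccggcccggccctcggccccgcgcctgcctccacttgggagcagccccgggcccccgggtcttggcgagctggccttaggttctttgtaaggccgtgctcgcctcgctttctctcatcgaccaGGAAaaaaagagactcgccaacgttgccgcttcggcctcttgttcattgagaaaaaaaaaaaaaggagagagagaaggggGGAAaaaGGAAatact
Dusp6, chr10:99262981-99263230, plus strand: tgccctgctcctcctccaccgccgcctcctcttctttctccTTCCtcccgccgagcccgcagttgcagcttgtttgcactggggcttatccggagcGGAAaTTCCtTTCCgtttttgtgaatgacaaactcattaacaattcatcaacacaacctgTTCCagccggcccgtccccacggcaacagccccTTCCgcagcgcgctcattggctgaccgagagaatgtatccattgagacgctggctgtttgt
Etv1, chr12:38779832-38780081, plus strand: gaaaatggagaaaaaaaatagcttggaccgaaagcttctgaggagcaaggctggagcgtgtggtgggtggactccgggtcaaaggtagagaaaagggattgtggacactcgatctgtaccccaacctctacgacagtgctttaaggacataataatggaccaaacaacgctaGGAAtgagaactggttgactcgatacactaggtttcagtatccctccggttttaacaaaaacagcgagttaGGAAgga
The Dusp6 window held 6 such cores, and 8.69% of all 32851 promoter windows of this length held at least as many. Spry2 had 3, Etv1 had 2 (1 in its other window, not shown) and Spry1 had 1, beside a median of 3 over all windows. At least as many were held by 54.66% of all windows for Spry2, 76.84% for Etv1 and 93.45% for Spry1. The longer ETS motif CCGGAAG, searched on both strands, was in none of these 4 windows and in 6.91% of all windows. Of the 9 genes, 5 had an entry in the promoter table, and Fgf8, Fgf17, Spry4 and Etv4 are named only. The fifth, Etv5, had 4 cores in one window and 0 in the other.

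Every value is a log2 ratio with caudal RNA on top, and a negative one means more RNA rostrally. A ratio holds no level, so neither the abundance of a gene nor the presence of a cell type can be read from it, and fewer expressing cells cannot be told apart from less RNA per cell. This sign is the likely one, since the deposited table does not name its numerator. Cy5 was read as the numerator, and beside the dye labels this rests on Nr2f1, which is known to be graded from caudal to rostral and is not one of the 9 genes: its first probe was positive on 10 of 10 arrays, with a mean of 1.85 ± 0.22 (SE, n = 5 pools), and its second on 9. With the other reading all signs below would turn together.

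The arrays gave ratios for 13723 to 18288 probes in MF1 and for 20191 to 20870 in C57, and their number limits the precision. The deposited ratios were not centred, and the pool medians over all tested probes lay between -0.18 and 0.36. Across all probes, the turned ratios of the 2 arrays of a pool hardly resembled each other, with Spearman correlations from -0.13 to 0.14 over the 5 pools. Of the 10 member probes, 7 probes for 6 genes had both dye orientations in at least 2 pools of each strain and were among the 11855 probes tested. Spry2, Spry4 and Etv4 did not meet this and are described by their values. The design text speaks of pools from single litters, but no label names a litter, so p-values measure only the spread between these pools.

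Several feedback targets had clearly negative ratios in most pools and both ligands had means near 0, although no member passed the adjusted test across all probes. On arrays with exchanged dyes, a real difference between the ends of the cortex turns the sign of the deposited ratio, and it did so in all 5 pools for Spry1. With caudal RNA in Cy5, the deposited Spry1 ratios were -1.27, -1.57 and -1.84 in MF1 and -0.49 and -0.18 in C57. With caudal RNA in Cy3 they were 2.48, 1.59 and 1.81 in MF1 and 0.95 and 1.61 in C57.

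**Figure D1:**
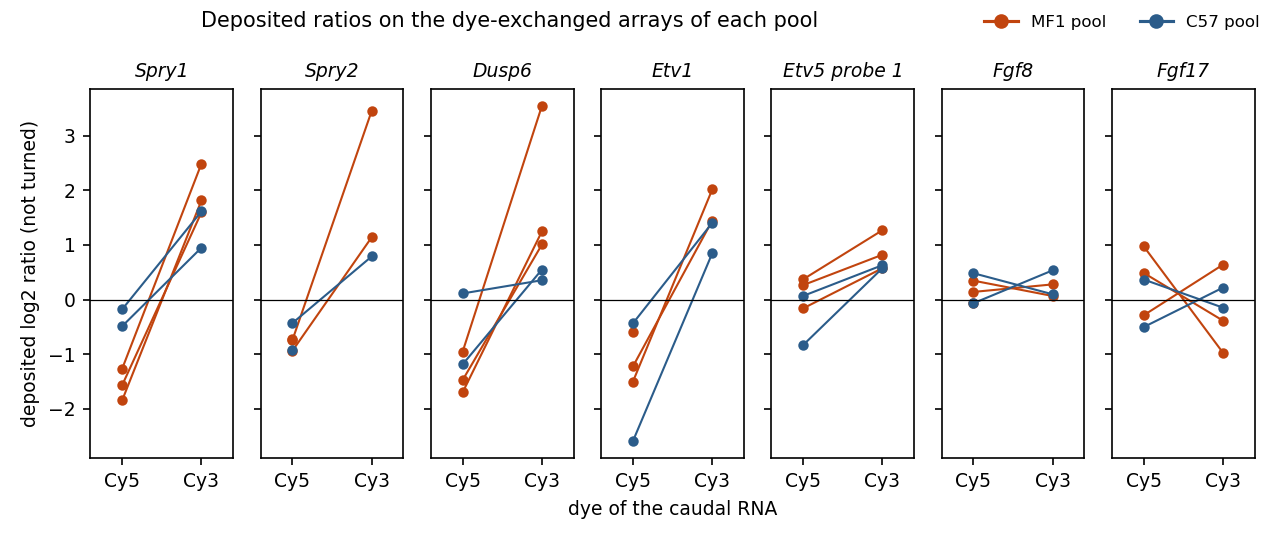
Deposited log2 ratios, not turned, on the 2 arrays of each pool (vertical axis) by the dye of the caudal RNA (horizontal axis), MF1 pools in orange and C57 pools in blue, with a line joining the arrays of a pool measured on both. The lines of Spry1, Spry2 and Etv1 cross 0 in every joined pool and those of Dusp6 in 4 of 5, while the Fgf8 and Fgf17 lines run in different directions.

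Spry1, whose protein blocks the relay from FGF receptors to RAS, had a negative ratio in every pool. Turned and averaged over both dyes, its ratios were -1.88, -1.58 and -1.83 in the MF1 pools and -0.72 and -0.90 in the C57 pools. The mean over both strains was -1.28 ± 0.14 (SE, n = 5 pools), that is 2.44-fold more RNA at the rostral end. It was negative on 10 of 10 arrays, as were 0.213% of the 8924 probes measured on all arrays. Without centring its size varied with the dye order, with a mean of -1.07 where caudal RNA was in Cy5 and -1.69 where it was in Cy3. On centred arrays the ratios ran from -2.075 to -0.325 with caudal RNA in Cy5 and from -2.036 to -0.748 with it in Cy3. The limma adjusted p was 0.567, and the exact two-sided sign-change test over the 5 pools gave 0.0625, the smallest p that 5 pools allow.

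Dusp6, the ERK phosphatase, went the same way with a wider spread. Its ratios were -2.25, -1.24 and -1.47 in the MF1 pools and -0.87 and -0.12 in the C57 pools, so the MF1 pools lay below both C57 pools. The mean was -1.07 ± 0.22 (SE, n = 5 pools), 2.11-fold more rostrally, with a limma adjusted p of 0.983 and an exact sign-change p of 0.0625. The low MF1 value came mainly from 1 array, at -3.55 with caudal RNA in Cy3 against -0.95 on its partner. The 1 array with a positive ratio was from C57 pool 2, at 0.11, where the median ratio of the deposited values was 0.667. After centring, Dusp6 was negative on all 10 arrays.

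Etv1, an ETS activator induced by FGF, was negative on all 9 arrays that measured it. Its ratios were -1.76 and -1.33 in MF1 pools 1 and 3 and -1.72 and -0.92 in the C57 pools, with the strains overlapping. MF1 pool 2 had a ratio of -0.60 on 1 array and none on its dye-exchanged partner, so it did not enter the mean. The mean was -1.43 ± 0.22 (SE, n = 4 pools), 2.70-fold more rostrally, with a limma adjusted p of 0.983; the exact sign-change p was 0.125, the smallest for 4 pools.

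Etv5, the close relative of Etv1, was read by 2 probes that did not give the same picture. The first, annotated to transcript AY004174, had ratios of -0.28, -0.45 and -0.37 in MF1 and -0.70 and -0.28 in C57, a mean of -0.43 ± 0.15 (SE, n = 5 pools; limma adjusted p = 0.983). Its strains overlapped and all 5 pools were negative. Without centring it depended on the dye order, with a mean of -0.06 where caudal RNA was in Cy5 and -0.77 where it was in Cy3. These means include the offset of each array's median. On centred arrays the ratios ran from -0.67 to 0.19 with caudal RNA in Cy5 and from -1.26 to -0.37 with it in Cy3. The second probe, annotated to transcript AK003461, had -0.17, 0.06 and -0.36 in MF1 and 0.04 and -0.08 in C57, a mean of -0.09 ± 0.14 (limma adjusted p = 0.983).

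The ligand means lay close to 0, with intervals that leave room for a difference in either direction. Fgf8 had ratios of -0.07 and 0.14 in MF1 pools 1 and 3 and -0.30 and 0.19 in the C57 pools. Its mean was -0.01 ± 0.18 (SE, n = 4 pools), with a 95% interval from -0.48 to 0.47 and a limma adjusted p of 0.995. Fgf17 had -0.46, 0.44 and 0.97 in MF1 and -0.36 and 0.26 in C57, a mean of 0.13 ± 0.25 (SE, n = 5 pools) with an interval from -0.49 to 0.75 (limma adjusted p = 0.983). Without centring, each strain held pools on both sides of 0 for both ligands. With arrays centred, Fgf8 stood at 0.12 and 0.02 in MF1 and at -0.12 and -0.18 in C57, and Fgf17 at -0.28, 0.35 and 0.85 in MF1 and at -0.18 and -0.11 in C57, so that both C57 pools were negative for both ligands. Without MF1 pool 1 or C57 pool 1 the Fgf8 mean was 0.04 or 0.11, and without MF1 pool 3 or C57 pool 2 the Fgf17 mean was -0.03 or -0.02. In MF1 pool 3, Fgf17 stood at 0.97 on both arrays.

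**Figure D2:**
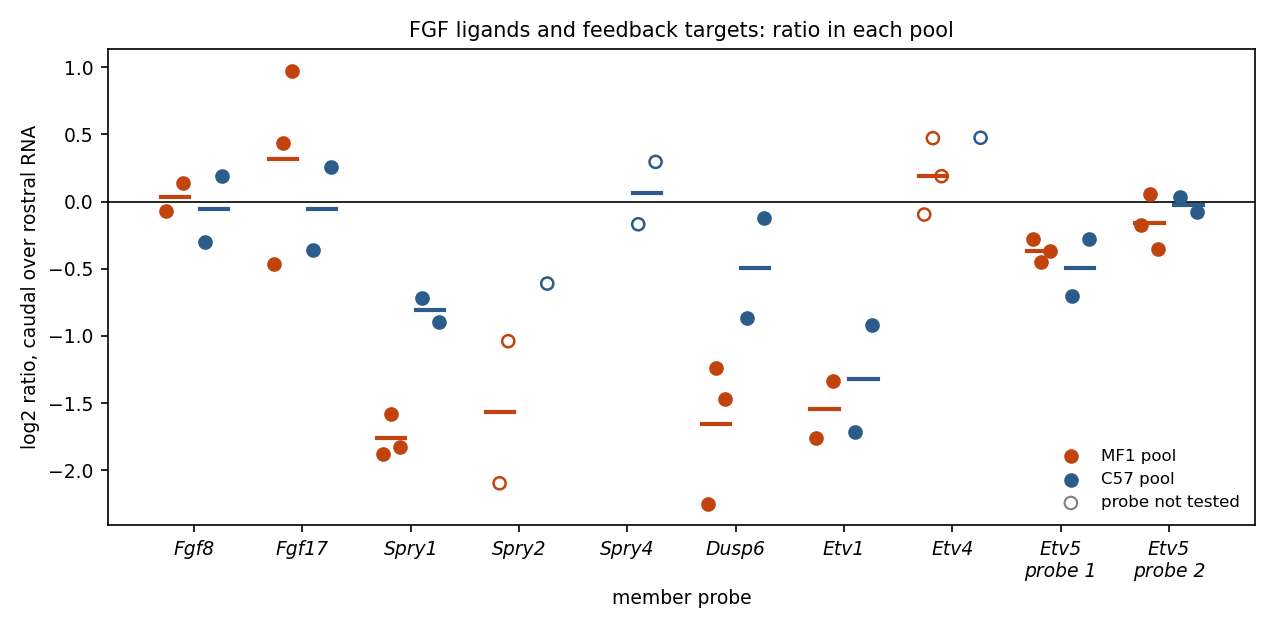
Log2 ratio of caudal over rostral RNA (vertical axis) for the 10 member probes (horizontal axis), a point for each pool with both dye orientations and a bar at the mean of 2 or more pools, MF1 in orange and C57 in blue, with open points for probes that were not tested. Spry1, Spry2, Dusp6, Etv1 and the first Etv5 probe lie below 0 in every measured pool, and Fgf8 and Fgf17 lie on both sides.

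Of the 3 members outside the test, Spry2, a Sprouty inhibitor like Spry1, had a ratio on 8 arrays and was negative on all of them. In MF1, pool 1 had -0.72 on its 1 measured array, and the pools with both dyes stood at -2.10 and -1.04. In C57, pool 1 had -0.92 on 1 array and pool 2 stood at -0.61. The value of MF1 pool 2 came from arrays at -0.74 and -3.45. When a single complete pool per strain was allowed, the Spry2 mean was -1.09 ± 0.35 (SE, n = 3 pools; limma adjusted p = 0.729).

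Etv4, the third PEA3 factor, had mostly positive ratios. Its complete pools stood at -0.10, 0.47 and 0.19 in MF1 and at 0.48 in C57 pool 2, and C57 pool 1 had 0.38 on 1 array. With 1 pool per strain allowed, the mean was 0.33 ± 0.25 (SE, n = 4 pools; limma adjusted p = 0.982). With arrays centred its pools lay nearer to 0, at 0.09, 0.38 and 0.07 in MF1 and at 0.11 in C57 pool 2. The third Sprouty, Spry4, was measured on 5 arrays only. It had -2.36 on 1 MF1 array and pool values of -0.17 and 0.30 in C57, which leave its direction unsettled.

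Read together, 6 of the 7 tested member probes were negative, with a median ratio of -0.43, beside 3632 of all 11855 tested probes (30.6%) and a median of 0.09. Among the 6, Fgf8 at -0.01 and the second Etv5 probe at -0.09 lay near 0. No member passed a limma adjusted p of 0.05, and the share of all tested probes that did was 0%. At an unadjusted p under 0.05, Spry1, Dusp6, Etv1 and the first Etv5 probe were negative, 4 of 7, as were 1.11% of all tested probes. With each array centred on its median the same 4 of 7 stood beside 2.29% of probes. The split of all probes at that threshold was 132 negative to 235 positive without centring and 272 to 270 with it. Of the 5 member probes with all 5 pools measured, Spry1, Dusp6 and the first Etv5 probe were negative in every pool, beside 0.728% of the probes so measured, or 2.57% when centred. The genes were chosen with earlier results of these data known, so these shares describe them and are not independent evidence.

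The place of a probe among all probes of its array needs no scaling between arrays. Spry1 lay between percentile 1.77 and percentile 29.7 of the turned ratios on the 10 arrays, with a median of 6.69. Dusp6 lay between 2.85 and 17.8, Etv1 between 2.24 and 22.1 on 9 arrays, and Spry2 between 1.94 and 20.2 on 8 arrays. These 4 genes thus lay on the rostral side of the median probe on every array that measured them. Spry1 and Dusp6 lay below the median probe on all 10 arrays, as did 0.347% of the probes measured on all 10. Fgf8 ranged from percentile 18.5 to percentile 63.4 and Fgf17 from 17.7 to 89.7.

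**Figure D3:**
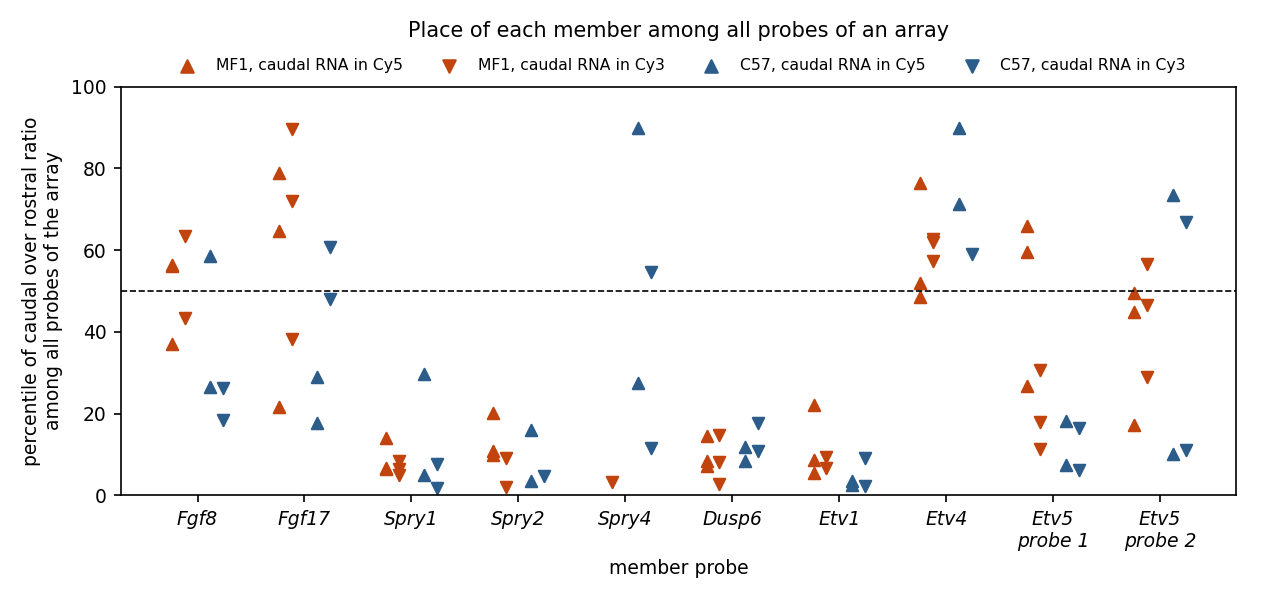
Percentile of the turned ratio among all probes of the same array (vertical axis, 0 most rostral and 100 most caudal) for each member probe (horizontal axis), a symbol for each array by strain and dye order, with the dashed line at percentile 50. Spry1, Spry2, Dusp6 and Etv1 lie in the lower part on every array and the ligands are spread.

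When the 10 centred arrays were fitted singly, with a dye term and the pool as a block, Spry1 passed with a mean of -1.34 ± 0.15 and a limma adjusted p of 0.0201. It was the 1 member among the 8 of 11855 probes that passed (0.0675%). Without centring, the same fit gave Spry1 a limma adjusted p of 0.0703. The 2 arrays of a pool hold the same RNA, so this fit counts more values than there are pools.

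The strains were compared next, since both were included so that regional differences could be told from strain differences. In MF1, Spry1 had a mean of -1.76 ± 0.18 and Dusp6 of -1.65 ± 0.28 (SE, n = 3 pools), and Etv1 of -1.55 ± 0.31 (SE, n = 2 pools). In C57, with 2 pools, the means were -0.81 ± 0.22 for Spry1, -0.49 ± 0.34 for Dusp6 and -1.32 ± 0.31 for Etv1. No member passed an adjusted p of 0.05 in limma in either strain, where 0% of all probes passed. At an unadjusted p under 0.05, 3 of 7 member probes were negative in MF1 (Spry1, Dusp6 and Etv1) beside 2.4% of all probes, and 2 of 7 in C57 (Spry1 and Etv1) beside 0.363%.

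The difference itself, MF1 minus C57, was -0.95 ± 0.28 for Spry1 and -1.16 ± 0.44 for Dusp6, with unadjusted limma p of 0.0157 and 0.0400. Neither passed the adjustment (limma adjusted p = 0.999), nor did any probe (0%). In log2 ratio the ranges did not overlap for either gene, the 3 MF1 pools lying below the 2 C57 pools. By percentile on the array the strains overlapped for both genes. Ratios of all tested probes also spread more widely in MF1. Their SD was 0.55 to 0.77 in the MF1 pools and 0.30 to 0.45 in the C57 pools. The part of this wider spread in the strain differences was not tested. Spry1 and Dusp6 were 2 of 7 member probes with a more negative MF1 ratio at an unadjusted p under 0.05, beside 1.33% of all tested probes. For Etv1 the difference was -0.23 ± 0.43, and for the first Etv5 probe 0.13 ± 0.29.

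**Figure D4:**
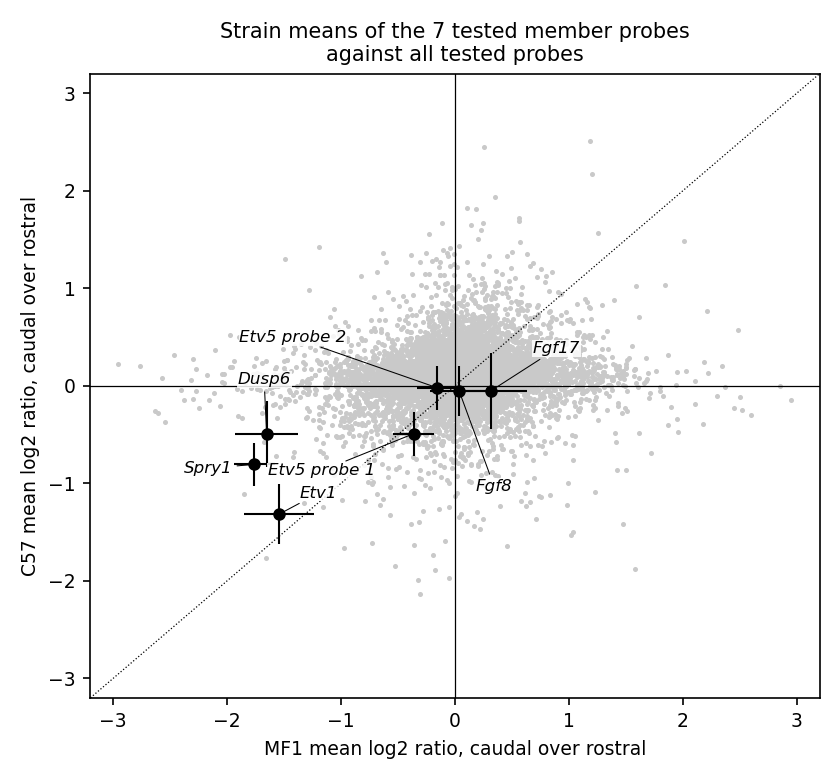
Mean log2 ratio of caudal over rostral RNA in MF1 (horizontal axis) and C57 (vertical axis) for the 7 tested member probes (black, bars are limma's SE) and all 11855 tested probes (grey), with a dotted line where both strains are equal. Spry1 and Dusp6 lie to the left of that line, at -1.76 and -1.65 in MF1 against -0.81 and -0.49 in C57. Ratios of all tested probes spread more widely in the MF1 pools than in the C57 pools.

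Markers of other tissues that the dissection could hold were read beside these strain values, against a median of 0.03 in MF1 and 0.13 in C57 over all tested probes. The wider spread of all ratios in MF1 applies to these markers too. Of 10 probes for ventral telencephalon, 6 were negative, from -0.99 (Dlx1) to 0.33 (Lhx6), with list medians of -0.09 in MF1 and -0.03 in C57. Dlx2, the gene of smallest p in that list, stood at -1.58 in MF1 and 0.06 in C57. Of 7 probes for surface ectoderm and placodes, 4 were negative, with list medians of -0.15 in MF1 and -0.10 in C57, and Krt18, a keratin of simple epithelia, had -2.61 in MF1 and -0.28 in C57. The MF1 mean lay below the C57 mean, as for Spry1 and Dusp6, at 5 of the 10 ventral probes and 4 of the 7 ectoderm probes, beside 61.6% of all tested probes. Those with this order were probes for Dlx1, Dlx2, Dlx5, Dlx6 and Lhx6, and for Krt8, Krt18, Trp63 and Grhl2. Dlx5 stood at -0.56 in MF1 and 0.10 in C57, and Krt8 at -0.73 in MF1 and 0.06 in C57. The other 5 ventral and 3 ectoderm probes had the opposite order. Among them were Nkx2-1, at -0.07 in MF1 and -0.41 in C57, and Krt5, at 0.08 in MF1 and -0.33 in C57. The part of these tissues in the Spry1 and Dusp6 values was not tested. Over both strains, where the median of all tested probes was 0.09, the other lists had medians of 0.24 for hem and choroid plexus (2 of 10 negative; Ttr at 1.68), 0.41 for blood (0 of 7; Hbb-y at 0.52), 0.04 for endothelium (4 of 8; Esam at 1.04), 0.01 for meninges and mesenchyme (3 of 7; Fbn2 at 0.52) and 0.33 for macrophages (0 of 3; Fcer1g at 0.33). They were 0.19 for neurons (2 of 12; Neurod1 at 0.74), 0.08 for septum and commissural plate (2 of 5; Six3 at 0.57) and 0.10 for cortical progenitors (2 of 11; Lhx2 at 0.32). Zic1, a septal list gene outside the tested probes and named after its values were seen, had -0.81, -3.20 and -0.47 in the MF1 pools and -0.29 in C57 pool 2. On its 9 single arrays Zic1 ran from -5.52 to 0.26.

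The rest of the FGF pathway was read from lists of genes by role, without the 9 members. No probe of these lists passed an adjusted p of 0.05 in limma. Of 10 tested probes for other FGF ligands, 4 were negative and the median was 0.07. None had an unadjusted p under 0.05, and the smallest was that of Fgf10, a ligand better known from limb and lung, at 0.93 ± 0.36 (SE, n = 4 pools). Fgf15, looked at after its values were seen and outside the tested probes, had -0.91, -1.29 and -0.99 in the MF1 pools and -0.47 in C57 pool 1. On its 9 single arrays Fgf15 ran from -1.49 to 0.42. Among receptors and cell-surface co-receptors, 1 of 10 probes was negative and the median was 0.17. Gpc3, a glypican, stood at 0.71 ± 0.20 and was the 1 probe of the list with an unadjusted p under 0.05.

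Of 11 probes for adaptors, RAS and kinases, 4 were negative, the median was 0.05, and none had an unadjusted p under 0.05. Araf, a RAF kinase, had the smallest, at 0.49 ± 0.35. Of 9 probes for other inhibitors of the pathway, 5 were negative and the median was -0.09. Spred1, a Sprouty-related inhibitor of RAS signalling, was negative in all 5 pools at 1 probe, with -0.42 ± 0.17, and stood at 0.15 ± 0.24 at its other probe. Of 11 probes for ETS factors outside the PEA3 group, 6 were negative with a median of -0.02, and Fli1, an ETS factor of blood vessels, had the smallest p at -0.17 ± 0.17.

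Of 11 probes for early genes that ERK induces in many cells, 9 were positive, beside 69.4% of all tested probes, and the median was 0.09, beside 0.09 over all probes. Fosb, an AP-1 subunit and the lowest of the list, stood at -1.44 ± 0.68 (SE, n = 4 pools), with 1 MF1 pool at -4.52. Ccnd1, a cyclin that drives entry into S phase, was negative in all 5 pools with -0.68 ± 0.23, and was the 1 probe with an unadjusted p under 0.05. Of 12 probes for factors known to position or limit the rostral source, 1 was negative and the median was 0.13. The 2 with an unadjusted p under 0.05 were both for Nr2f1. That gene was used to read the numerator, so its positive sign is not a separate result.

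**Figure D5:**
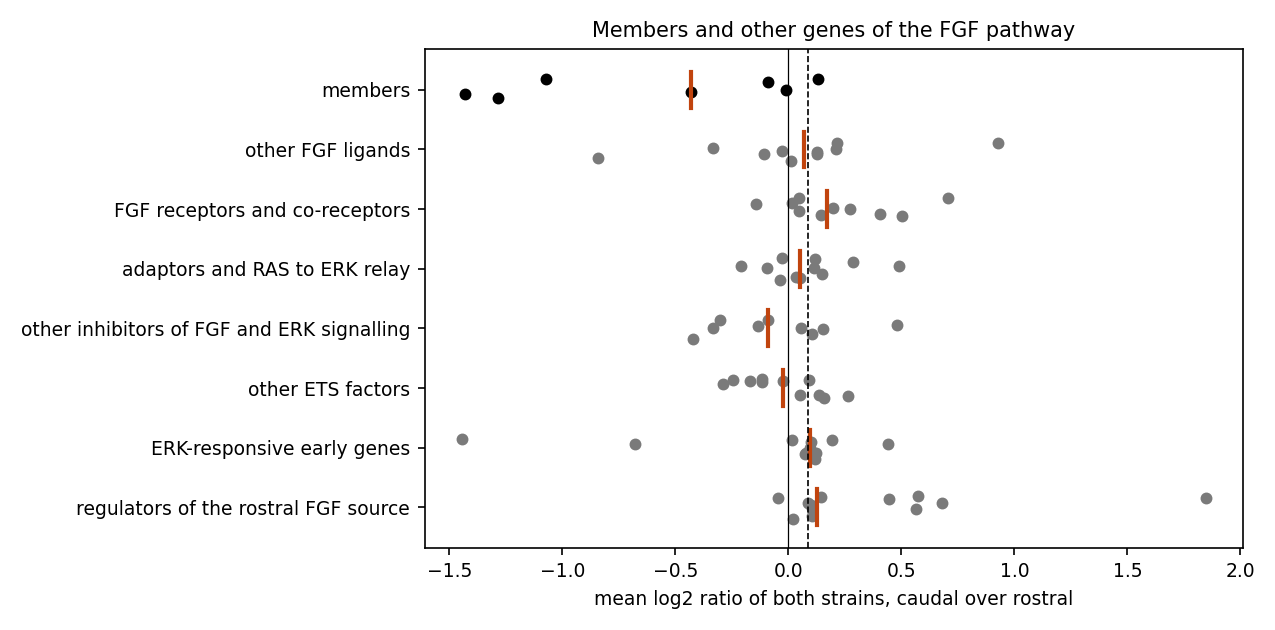
Mean log2 ratio of both strains, caudal over rostral (horizontal axis), for each tested probe of the members and of 7 pathway lists (rows), with an orange bar at each row's median and a dashed line at the median of all tested probes, 0.09. The members' median is -0.43, and the medians of the other rows run from -0.09 to 0.17.

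The probes most like the 3 members of smallest p were found by Euclidean distance over the pool values, among 7530 named probes measured in all 5 pools (7531 for Etv1, over the 4 pools it has). For Spry1 they were Mpped2 (distance 0.94), Dusp6 (1.0) and Trp63 (1.12). For Dusp6 they were Mblac2 (0.74), Spry1 (1.0) and Pappa (1.14), and for Etv1 Mpped2 (0.77), Sfrp1 (0.89) and Spry1 (1.12). The members searched with were those of smallest p, so negative means among their neighbours follow from the search. Mblac2 and Pappa, near Dusp6, were not negative in every pool. They stood at -2.48 and -2.73 in MF1 pool 1 and at 0.38 and 0.22 in C57 pool 2. Mpped2, a phosphoesterase, had -1.52, -1.16 and -1.31 in MF1 and -1.10 and -1.30 in C57, a mean of -1.27 ± 0.14 (SE, n = 5 pools). Trp63, a transcription factor of surface ectoderm, had -1.24, -1.02 and -1.48 in MF1 and -0.20 and -0.50 in C57.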

How the data were processed

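RNA was extracted with Trizol, per the labels, and the series' design text gives SMART amplification. The deposited table holds log2 ratios of 2 channels for 10 arrays, a unit read from the values. Not given in the sources used here were scanner, background correction, normalization and numerator. The 436 values at a shared ceiling of 16.61 were set to missing, since no ratio is readable there, and 232 control spots were left out. Ratios, read as Cy5 over Cy3, were turned to caudal over rostral by the dye labels, not centred, and averaged over both arrays of a pool. The 11855 probes with both dyes in at least 2 pools of each strain were fitted in limma 3.58.1 (R 4.3.3; lmFit, eBayes, a coefficient per strain; 2.69 prior and up to 3 residual degrees of freedom), two-sided, with Benjamini-Hochberg adjustment over all of them and a threshold of 0.05. The mean weights both strains equally. Errors are moderated SE.

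The members and gene lists were chosen with earlier results of these data known. Named beside the members were each pathway and marker list's probe of smallest p and the 3 nearest probes of the 3 members of smallest p. List extremes, Fgf15, Zic1, the marker genes named for their strain order (Krt5 and Nkx2-1 among them), and neighbours' single values were named after they were seen. Symbols were updated by gene identifier to GRCm38.p6 (15952 of 16632 single-symbol probes matched). The fit was also run on simulated independent normal pool values with less spread than the real pools. Nothing about these data is drawn from that run. Alternatives covered centring, scaling, filters, dye order, ceiling values, variance model, pool weights and leaving out each pool. Figures used matplotlib 3.10.9.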

Additional observations from a re-analysis of the deposited data

Results flagged for a closer look

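Spry1 and Dusp6 stood out because their ratio differed between the strains at an unadjusted p under 0.05 in the test of the difference itself. The limma difference, MF1 minus C57, was -0.95 for Spry1 and -1.16 for Dusp6, and neither passed over all probes (limma adjusted p = 0.999). Unadjusted, limma gave 0.0157 for Spry1 and 0.0400 for Dusp6. All 3 MF1 pools lay below both C57 pools for each gene in log2 ratio, while by percentile on the array the strains overlapped. The unadjusted p of Spry1 was 0.0696 without C57 pool 1 and 0.0711 without MF1 pool 3. That of Dusp6 was 0.0767 without MF1 pool 1 and 0.222 without C57 pool 2, where the difference was -0.79. In the 4 or 5 pools of a member, no single pool lay far enough from the others to pass Dixon's test. With so few values, taken over both strains, that test can hardly find such a pool, so nothing about the strain difference is drawn from it.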

How the results depend on the processing

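The number of member probes past an adjusted p of 0.05 was 0 in each of the 4 comparisons. It stayed at 0 in 79 of the 80 recomputed counts, over 23 alternatives, and was 1 (Spry1, both strains) with the 10 centred arrays fitted singly; the cause was not tested. Spry1, Dusp6, Etv1 and the first Etv5 probe kept a negative mean under every alternative that gave a value, with ranges of -1.62 to -0.95, -1.26 to -0.89, -1.78 to -1.23 and -0.75 to -0.11. Fgf8 turned to 0.17 and the second Etv5 probe to 0.033 when only arrays carrying caudal RNA in Cy5 were used; leaving out single pools gave Fgf8 -0.13 to 0.11 and Fgf17 -0.0325 to 0.33. Over all probes, 37 passed in MF1 without MF1 pool 1 and 24 without MF1 pool 3, and 51 in C57 with its pools fitted alone; no member was among them. With 1 C57 pool left, that pool was assumed to vary like the others. Pools of different strains share only a number: the deviations of same-numbered pools correlated at 0.15 and -0.02. A replicate block on that number gave 0 member probes for the strain difference. Precision is limited by few pools, missing ratios and dye-exchanged arrays that hardly correlate; these limits were not ranked.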
